A study of Rattus norvegicus with 24 samples.

Results

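Cerebellum of 14-day-old Long-Evans rat pups was compared between litters of mothers given Aroclor 1254, a commercial mixture of polychlorinated biphenyls (PCBs), and litters of undosed mothers. The dosed dams (12, 15 and 18) received 6 mg/kg/day in corn oil by mouth from gestation day 6, and the undosed dams (1, 7 and 13) received the oil with 0 mg/kg/day. Each array holds the cerebellum of 1 pup of 1 litter, and per the labels each pup was male. Of the 6 arrays at postnatal day (PND) 14, the undosed array of dam 13 was left out because its median of 7.91 lies above 7.7, while the medians of the others lie between 7.46 and 7.47. Over probe sets, the array of dam 13 also correlated at only 0.654 and 0.655 with the undosed arrays of dams 1 and 7. Those 2 arrays correlated with each other at 0.996. Leaving out the array of dam 13 left 5 of the 24 arrays of the series, 3 dosed and 2 undosed. The same dams also gave pups at PND 7, and hippocampus was measured at both ages. Since pups were exposed only through their mothers, the litter is the unit of treatment, and the comparison rests on 3 dosed litters against 2 undosed ones.

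The cerebellum of the rat is built largely after birth. Granule cell precursors divide in the external granular layer, leave the cell cycle, migrate inward past the Purkinje cells along Bergmann glia and mature into granule neurons, while oligodendrocytes begin to myelinate the axons. Thyroid hormone times these steps, and PCBs are known to lower circulating thyroxine in rat pups, to activate the aryl hydrocarbon receptor in the case of dioxin-like congeners and to disturb neuronal calcium signalling. The markers of the tissue matched its label. Pcp2, a Purkinje cell gene, lay between 12.01 and 12.34 on the log2 scale in the 5 arrays and between 6.29 and 6.56 in hippocampus at the same age. Gabra6, the GABA-A receptor subunit of mature granule cells, lay between 9.14 and 10.68 and, in hippocampus, between 6.15 and 6.59. All values below are log2 levels per probe set as the authors deposited them, so that a difference of 1 is a 2-fold difference, and values are listed for dams 12, 15 and 18 and then for undosed dams 1 and 7.

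Arrays within the comparison were not alike. The array of dosed dam 15 stood apart: its correlation over probe sets with the other 4 arrays lay between 0.985 and 0.988, while the other pairs lay between 0.993 and 0.997. It held the highest or the lowest value of the 5 in 63.5% of probe sets. Against the mean of the other 4 arrays it was over 1 higher in 43 genes and over 1 lower in 33, whereas no other array passed that distance in more than 4 genes in either direction. The array of undosed dam 1 went against its male label, since Xist, the RNA that coats the inactive X chromosome of females, measured 10.76 there and between 4.07 and 4.21 in the other 4. High Xist was also seen on the undosed arrays of dam 1 in hippocampus at PND 14 (8.98) and of dam 13 at PND 7 in cerebellum (10.52) and hippocampus (9.70), all of pups labelled male, and on no dosed array. Of 90 genes given with a difference, 46 turned or moved by over 1.5 times without the array of dam 15 and 22 without that of undosed dam 1; of 31 gene list medians, 16 turned without dam 15 and 4 without dam 1. Values without these arrays stand beside many of the results, and what sets the array of dam 15 apart was not tested.

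No probe set passed an adjusted p of 0.05 for dosing (0 of 9519, 0%; limma with Benjamini-Hochberg adjustment). The smallest adjusted p was 0.944, for Mapk8. At an unadjusted p under 0.05 there were 465 probe sets (4.88%), 210 higher (2.21%) and 255 lower (2.68%) in dosed pups, where 476 would be reached if p-values were evenly spread. No gene below can therefore be said to have changed with dosing, and the values describe these 5 pups. Of 6936 genes, taken at their brightest probe set, 3237 (46.7%) were higher and 3699 (53.3%) lower, with a median difference of -0.01. The 3 dosed arrays all lay above both undosed ones in 530 genes (7.64%) and all below in 430 (6.2%). Differences past 0.5 were seen in 27 genes higher and 10 lower. The median standard deviation (SD) over probe sets was 0.149 among the 3 dosed pups, dam 15 included, and 0.0619 between the 2 undosed pups. A median SD comes out lower from 2 values than from 3 even at equal spread, so these figures are not directly comparable. Without the array of dam 12, 1 probe set passed. It belongs to Lurap1l, which measured 7.63, 6.44 and 6.59 in dosed pups and 7.60 and 7.19 in undosed pups, a difference of -0.88 ± 0.12 (standard error, SE) with an adjusted p of 0.00324 in that fit of limma. The pup of dam 12 thus lay with the undosed pups for this gene, which was singled out after its values were seen.

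Among genes whose groups did not overlap, those with the smallest unadjusted p and a higher level in dosed pups included a stress kinase, a regulator of endocytosis and an ion channel. Mapk8, which encodes the c-Jun N-terminal kinase JNK1, measured 9.20, 9.17 and 9.08 in dosed pups and 8.79 and 8.81 in undosed pups. The 3 dosed pups lay close together and well above the undosed pair. The difference was 0.35 ± 0.07 (SE), and without dam 15 it was 0.34. Dnm3, a dynamin that pinches off endocytic vesicles at synapses, measured 9.65, 9.33 and 9.58 in dosed pups and 8.98 and 9.04 in undosed pups, a difference of 0.51 ± 0.15. A dimmer Dnm3 probe set gave 0.05, so the probe sets of this gene disagree. Cnksr3, a scaffold in epithelial sodium transport, measured 8.33, 8.67 and 8.56 against 8.04 and 8.11, and all dosed pups stood clear of the undosed ones, a difference of 0.45 ± 0.11. Kcnd1, a subunit of A-type potassium channels, measured 7.06, 7.72 and 7.13 against 6.59 and 6.99; here the undosed pup of dam 7 came close to the dosed pup of dam 12. The difference of Kcnd1 was 0.51 ± 0.16, and 0.31 without the undosed array of dam 1 or 0.30 without dam 15.

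Alox15, a lipoxygenase that oxidizes arachidonic acid, had the widest distance between groups. Its values were 8.99, 11.77 and 9.18 in dosed pups and 8.13 and 8.27 in undosed pups. All dosed pups were higher, but the pup of dam 15 stood far above the other dosed ones, and the difference of 1.78 ± 0.57 became 0.89 without it. The order of the 5 arrays was the same as for Alas2, a red blood cell gene given below. In cerebellum at PND 7, Alox15 and Alas2 were both highest in the undosed pup of dam 7, at 9.41 and 9.15. This likeness was seen after the fact, and whether Alox15 follows red blood cells was not tested. Itih3, which binds hyaluronan in the extracellular matrix, measured 9.66, 10.25 and 9.67 against 9.41 and 9.39, and without dam 15 its difference went from 0.46 ± 0.14 to 0.27. Man2b1, the lysosomal alpha-mannosidase, went from 0.46 ± 0.15 to 0.26 in the same way. The remaining genes of this group were Kansl3, a subunit of a histone acetyltransferase complex (0.31 ± 0.09), Pura, a single-stranded DNA and RNA binding protein (0.39 ± 0.12), Mtus2, a microtubule protein (0.43 ± 0.13), Elmod1 (0.38 ± 0.12) and Tatdn3 (0.51 ± 0.16). In Kansl3, Elmod1 and Tatdn3 the difference was no smaller without the array of dam 15.

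The genes that were lower in dosed pups and did not overlap were taken by the same rule. Mgat3, which adds the bisecting N-acetylglucosamine to N-glycans, measured 6.63, 7.08 and 7.14 in dosed pups and 7.43 and 7.41 in undosed pups. The pup of dam 12 was clearly the lowest, and the difference was -0.47 ± 0.13. Dnajb1, an Hsp40 co-chaperone of Hsp70, measured 8.39, 8.55 and 8.70 against 8.91 and 8.79, a difference of -0.31 ± 0.09; its dimmer probe set gave -0.14. Syvn1, the ubiquitin ligase of endoplasmic reticulum degradation, measured 7.92, 7.74 and 7.699 against 8.24 and 8.09, with the lowest dosed values in the pups of dams 15 and 18. Scarb1, the receptor for high-density lipoprotein, differed by -0.24 ± 0.07, and its dosed values of 8.00, 8.02 and 8.11 lay close together. Cdca7, a MYC and E2F target involved in chromatin, measured 7.23, 6.74 and 7.03 against 7.44 and 7.28, and its difference went from -0.36 ± 0.12 to -0.23 without dam 15. Syt9, a synaptotagmin of vesicle release, differed by -0.39 ± 0.12, and Bzw1, a regulator of translation initiation, by -0.33 ± 0.10; the dimmer Bzw1 probe set gave -0.20 and that of Scarb1 -0.09.

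Purb differed by -0.30 ± 0.09 in the direction opposite to Pura, although both belong to the same family of purine-rich element binding proteins. Purb measured 9.13, 8.88 and 9.05 in dosed pups and 9.39 and 9.25 in undosed pups. A second tested probe set of Purb gave -0.04 ± 0.12 and did not follow, so the values for this gene depend on the probe set. The other genes of this group were Rimklb (-0.36 ± 0.12), an enzyme that joins glutamate to N-acetylaspartate, Babam2 (-0.28 ± 0.10), a subunit of the BRCA1-A complex, and Tbc1d10a (-0.29 ± 0.09), a GTPase activating protein of Rab proteins. Rimklb and Babam2 also have a dimmer probe set each, with -0.22 and -0.07.

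**Figure D1:**
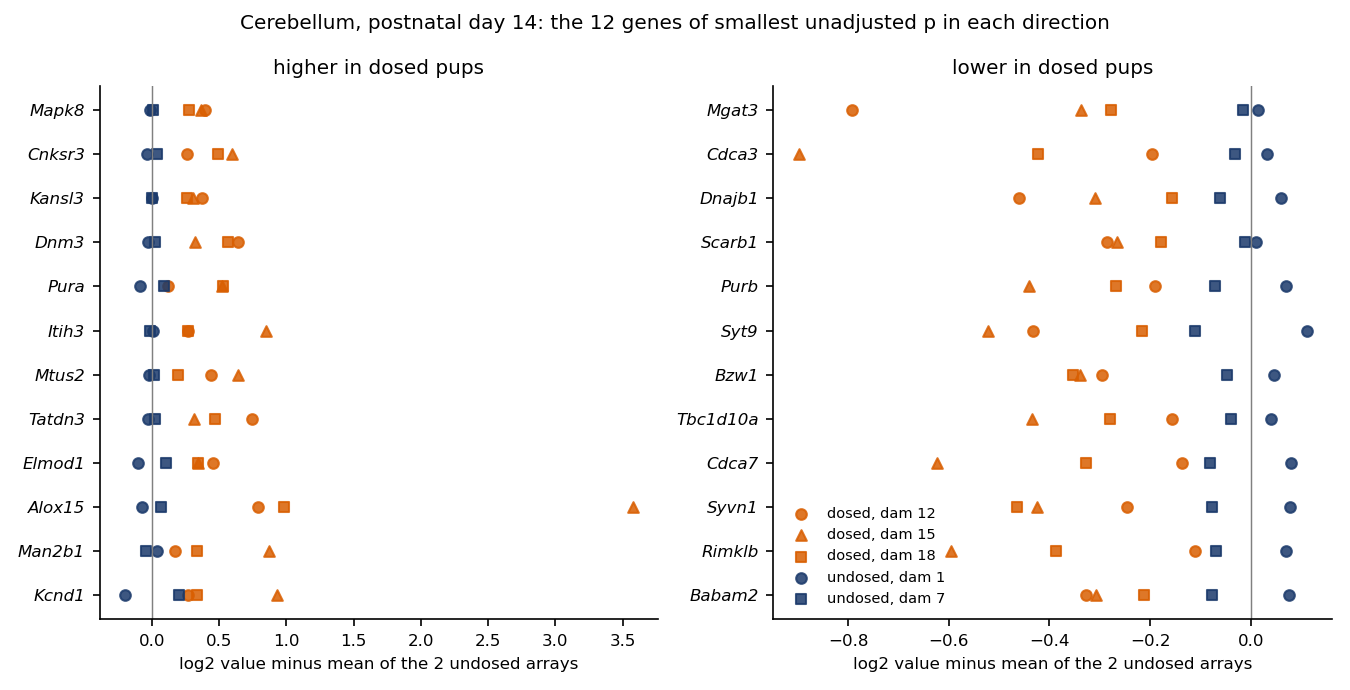
Levels of the 12 genes of smallest unadjusted p in each direction among genes whose groups do not overlap, as the log2 value of each array minus the mean of both undosed arrays (horizontal axis); orange points are dosed pups and blue points undosed pups, with the shape giving the dam. Groups do not overlap because the genes were chosen for that, and the pup of dam 15 lies far from the other dosed pups in Alox15 and Cdca3, while Mapk8 and Kansl3 have dosed values close together.

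Cell cycle genes were lower in dosed pups as a list. Of 38 measured, 36 were lower and 2 higher, with a median difference of -0.20 beside -0.01 over all genes. None passed an adjusted p of 0.05, 10 lay at an unadjusted p under 0.05 on the lower side (2.09% of all genes), and 6 had dosed values all below both undosed ones (15.8%, beside 6.2% of all genes). Top2a, the topoisomerase that untangles chromosomes before division, measured 9.27, 8.25 and 8.86 in dosed pups and 9.47 and 9.20 in undosed pups. Only the pups of dams 15 and 18 lay below both undosed pups, and the difference of -0.55 ± 0.19 was -0.27 without dam 15. Ccnb1, the cyclin that drives entry into mitosis, measured 9.03, 7.92 and 8.79 against 9.31 and 8.90, and the difference went from -0.53 ± 0.20 to -0.20. Mki67, the proliferation marker, measured 7.68, 6.81 and 7.52 against 8.06 and 7.64, from -0.51 ± 0.20 to -0.25. Without undosed dam 1 they were -0.32 and -0.30. For both, at the brightest probe set, the pup of dam 12 lay above the undosed pup of dam 7. The dimmer Ccnb1 probe set gave -0.64 ± 0.18, with all dosed pups below both undosed ones. The dimmer Top2a probe set gave -0.27 ± 0.13, and its groups overlapped. Pcna, the sliding clamp of DNA replication, measured 10.32, 9.57 and 9.92 against 10.38 and 10.24, with a difference of -0.37 ± 0.13, or -0.19 without dam 15.

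Cdca3, which triggers degradation of the mitosis-inhibiting kinase Wee1, had the smallest p of the list. Its values were 9.02, 8.32 and 8.80 in dosed pups and 9.25 and 9.19 in undosed pups, and its difference was -0.51 ± 0.14, or -0.31 without dam 15. The pup of dam 15 was the lowest of the 5 in 32 of the 38 cell cycle genes (84.2%), while it was the lowest in 38.3% of all genes. Without it 32 of 38 were still lower, but the median was -0.06, and without the undosed array of dam 1 it was -0.14. The mean level of the list was 8.41, 7.90 and 8.25 in the dosed pups and 8.51 and 8.32 in the undosed ones. The pup of dam 12 thus lay between the undosed pups, that of dam 18 just below them and that of dam 15 well below. At PND 7, when the external granular layer is thick, the same list had a median difference of 0.06 with 12 lower (42.3% of all genes were lower at that age), and its mean level lay between 9.18 and 9.31, above every array of PND 14. In hippocampus at PND 14, 25 of the 38 were lower in dosed pups, with a median of -0.04, while 60.2% of all genes were higher there. The hippocampus array of dam 15 had 30 of the 38 below the mean of the other 5 pups, with a median of -0.15 (48.6% of all genes were below). In bulk tissue, fewer dividing cells and less RNA per dividing cell cannot be told apart.

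**Figure D2:**
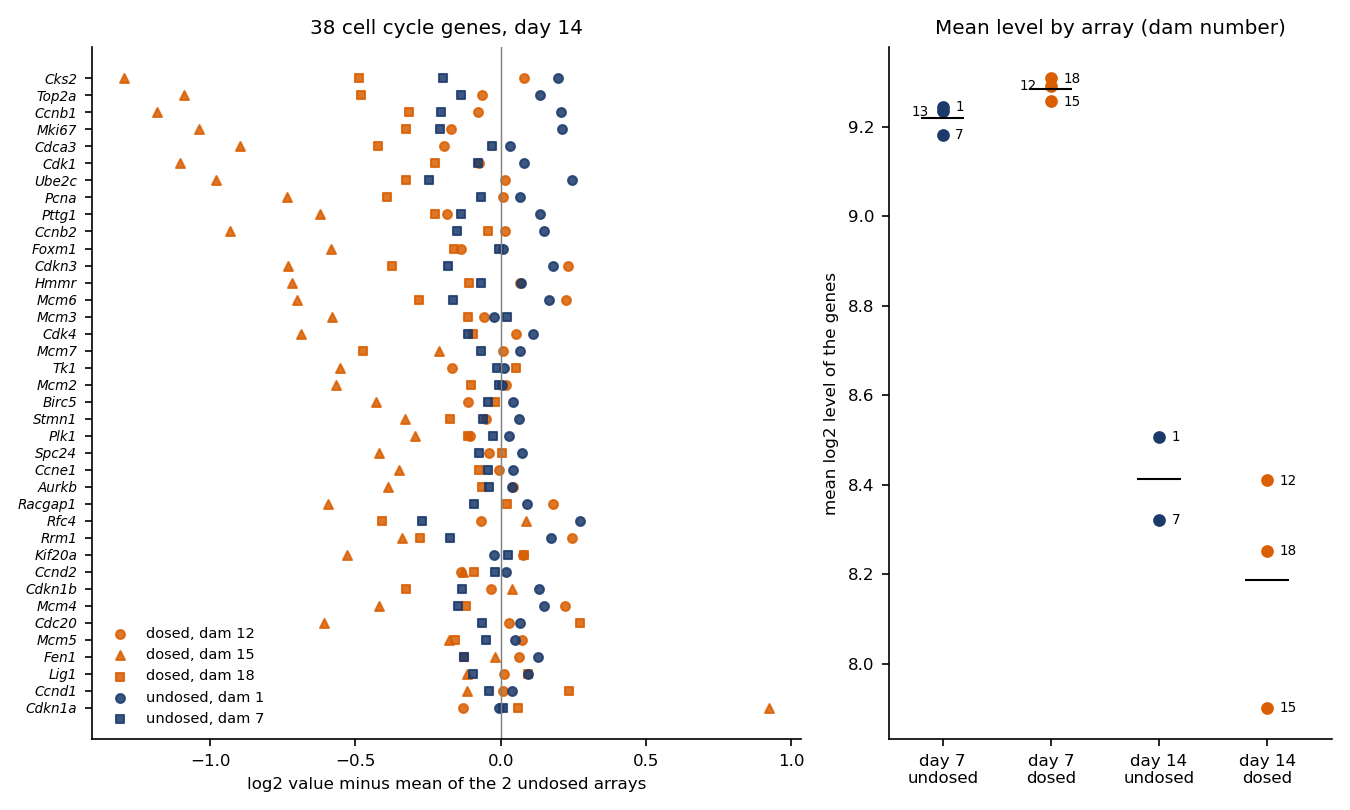
Left, each cell cycle gene as the log2 value of each PND 14 array minus the mean of both undosed arrays; orange points are dosed and blue points undosed, with the shape giving the dam. Right, the mean log2 level of the 38 genes in each cerebellum array at PND 7 and PND 14, labelled with the dam number, with a line at each group mean; the pup of dam 15 is lowest at 7.90, and the pup of dam 12 at 8.41 lies between the undosed pups.

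Many genes of the late cell cycle share promoter elements, and the promoters of the list were searched for the cell cycle homology region (CHR; TTTGAA or TTTAAA) and for CCAAT, both on either strand, with overlaps counted. Promoters were found for 31 of the 38 genes in RefSeq (GRCr8), and the 250 bases before the start were searched. A CHR was present in 16 (51.6%), against 15.8% of the 5820 tested genes with a promoter and 25.3% of all 27457 promoters. CCAAT was present in 23 (74.2%), against 36.3% and 34.3%, and both in 14 (45.2%), against 5.93% and 8.88%. Matches describe letters and are no evidence of binding. The list was put together as cell cycle genes, so these shares describe the list and say nothing about dosing. The 150 bases before the start are shown for the 4 mitotic genes described above, with matches in capitals, because they show the spacing of the elements close to the start.
Top2a (chr10:84473094-84473243, minus strand): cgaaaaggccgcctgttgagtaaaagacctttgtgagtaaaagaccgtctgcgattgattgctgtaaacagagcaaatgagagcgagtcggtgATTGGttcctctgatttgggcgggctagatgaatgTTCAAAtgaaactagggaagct
Ccnb1 (chr2:33655226-33655375, minus strand): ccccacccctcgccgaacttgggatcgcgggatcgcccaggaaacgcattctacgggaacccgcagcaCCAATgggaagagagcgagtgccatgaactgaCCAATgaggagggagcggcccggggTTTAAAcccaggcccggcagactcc
Mki67 (chr1:199952594-199952743, minus strand): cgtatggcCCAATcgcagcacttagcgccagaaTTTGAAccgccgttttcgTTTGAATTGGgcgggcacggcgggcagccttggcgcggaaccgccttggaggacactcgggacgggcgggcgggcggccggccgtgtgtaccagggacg
Cdca3 (chr4:159321053-159321202, plus strand): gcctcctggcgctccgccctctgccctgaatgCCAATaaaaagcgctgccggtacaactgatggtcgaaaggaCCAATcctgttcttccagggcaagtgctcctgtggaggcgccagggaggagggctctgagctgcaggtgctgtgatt
Top2a and Ccnb1 each carry 1 CHR close to the start with CCAAT upstream of it. Mki67 carries 2 CHRs, the second of which shares a base with a CCAAT on the opposite strand. Cdca3 has CCAAT but none of these CHR letters in its 250 bases.

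Lists of nuclear transport and RNA processing were also lower on balance in dosed pups. Of 32 nuclear pore and transport genes, 24 were lower, the median was -0.09 and 4 did not overlap on the lower side (12.5%, beside 6.2% of all genes). Nup153, a nuclear basket protein, measured 8.03, 7.52 and 7.45 in dosed pups and 8.19 and 7.92 in undosed pups, so that dam 12 lay between the undosed pups; the difference was -0.39 ± 0.15, or -0.25 without undosed dam 1. Nup58, a central channel protein, differed by -0.32 ± 0.12, Kpnb1, the importin beta receptor, by -0.28 ± 0.13 and Ipo5, another importin, by -0.22 ± 0.09. Without undosed dam 1, Nup58 differed by -0.18 and Ipo5 by -0.11. Nup50 was too dim to be tested; it measured 6.46, 6.44 and 6.75 in dosed pups and 6.87 and 7.24 in undosed pups. Without dam 15 the list had a median of -0.03 with 20 lower, and in hippocampus at the same age its median was 0.04.

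In splicing and RNA binding, 33 of 41 genes were lower, with a median of -0.12. Srsf6, a serine and arginine rich splicing factor, measured 10.66, 9.97 and 10.33 in dosed pups and 10.76 and 10.79 in undosed pups, a difference of -0.46 ± 0.16 that was -0.28 without dam 15, but its dimmer probe set gave 0.01. Ptbp1, the repressor of neuronal exons, measured 9.57, 9.51 and 9.65 against 9.82 and 9.78, and all 3 dosed pups were below both undosed ones. Celf1 ran the other way at 0.31 ± 0.12. The median was -0.03 without dam 15 and -0.04 without dam 1. Of 37 chaperones, 28 were lower with a median of -0.05, and without dam 15 only 13 were lower with a median of 0.04. Dnajb1 was the only chaperone of the list whose dosed values all lay below (2.70%, beside 6.2% of all genes). In 2 chaperones the dosed values all lay above (5.41%, beside 7.64% of all genes).

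**Figure D3:**
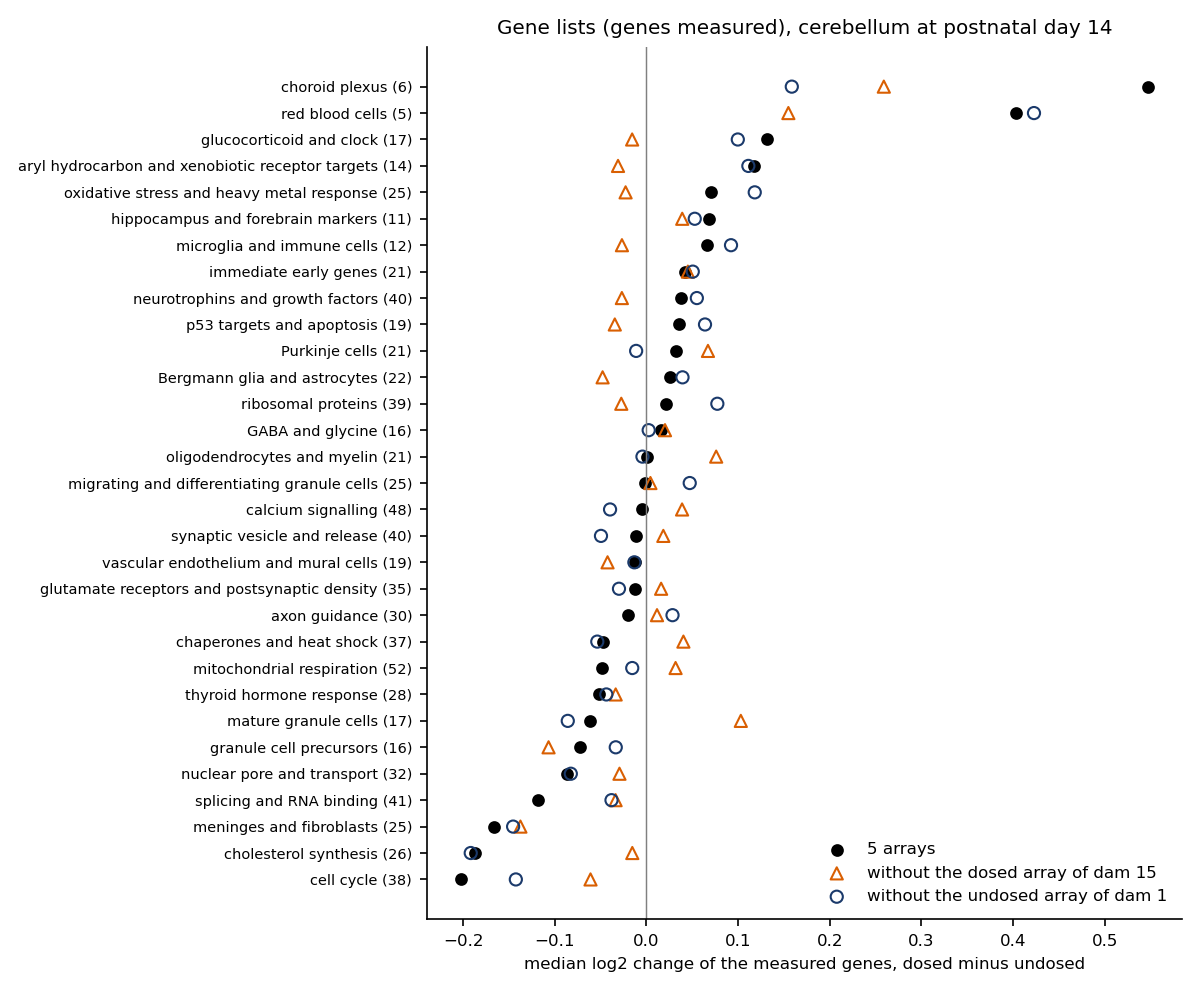
Median log2 difference, dosed minus undosed, of the measured genes of each list (number measured in brackets) with all 5 arrays (black), without the dosed array of dam 15 (orange triangles) and without the undosed array of dam 1 (open blue circles). Leaving out dam 15 moves cell cycle from -0.20 to -0.06, cholesterol synthesis from -0.19 to -0.02 and mature granule cells from -0.06 to 0.10.

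Along the granule cell lineage the lists did not move together. Of 16 precursor genes, 10 were lower, with a median of -0.07, and 4 of them did not overlap (25%, beside 6.2% of all genes). Sox11, a transcription factor of immature neurons, measured 7.41, 7.47 and 7.27 in dosed pups and 7.94 and 7.49 in undosed pups, a difference of -0.33 ± 0.16; without the undosed array of dam 1 it was -0.11. Tead2, a partner of the Hippo pathway, differed by -0.16 ± 0.11, or -0.10 without undosed dam 1. Of 25 genes of migrating and differentiating granule cells, 13 were lower and 12 higher, with a median near 0. Neurod2, a transcription factor of differentiating neurons, was higher at 9.61, 9.68 and 9.58 against 9.16 and 9.46, a difference of 0.31 ± 0.10, or 0.17 without undosed dam 1. Dcx, the microtubule protein of migrating neurons, measured 10.81, 10.99 and 10.57 against 10.87 and 10.65, and the groups overlapped fully.

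Mature granule cell genes depended on dam 15. With all 5 arrays 12 of 17 were lower and the median was -0.06; without that array 6 were lower and the median was 0.10. Gabra6 measured 10.57, 9.14 and 10.61 in dosed pups and 10.49 and 10.68 in undosed pups. The pups of dams 12 and 18 lay within the undosed range, and the difference of -0.48 ± 0.28 became 0.0058 without dam 15. Grin2c, the NMDA receptor subunit that granule cells take up as they mature, measured 10.24, 8.89 and 10.33 against 10.43 and 10.39. Its difference went from -0.59 ± 0.30 to -0.12. Tiam1, a Rac activator in dendrites and axons, was higher at 7.09, 7.29 and 7.63 against 6.90 and 7.12, with dam 12 just below the undosed pup of dam 7.

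Purkinje cell genes were close to equal. Of 21, 12 were higher and 9 lower, and the median was 0.03, or -0.01 without undosed dam 1. Pcp2 differed by 0.14 ± 0.12, Calb1, the calcium buffer calbindin, by 0.05 ± 0.10, and Pvalb, the calcium buffer parvalbumin, by -0.04 ± 0.22. Without undosed dam 1 the Pcp2 difference was 0.023 and that of Pvalb -0.21, and without dam 15 that of Calb1 was -0.021 and that of Pvalb 0.20. Calb1 was nearly constant outside dam 15, at 11.72, 11.67, 11.72 and 11.71 in the other pups and 11.91 in that one. Pvalb, which interneurons also express, measured 10.62, 10.05 and 10.91 against 10.39 and 10.74. Plcb4, the phospholipase C downstream of the metabotropic glutamate receptor, measured 8.14, 8.29 and 7.91 against 7.56 and 8.09; its difference of 0.29 ± 0.14 was 0.025 without the undosed array of dam 1. Ebf1 differed by 0.23 ± 0.12, or 0.13 without that array.

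Among glial genes, 12 of 22 Bergmann glia and astrocyte genes were higher and 10 lower, with a median of 0.03, or -0.05 without dam 15. Hopx, which marks Bergmann glia and their precursors, measured 9.71, 9.22 and 9.30 in dosed pups and 9.81 and 9.76 in undosed pups. All dosed pups were lower, though that of dam 12 came close to the undosed pup of dam 7, and the difference was -0.38 ± 0.15. Gfap, the intermediate filament of astrocytes, measured 11.47, 11.13 and 11.62 against 11.56 and 11.50, a difference of -0.13 ± 0.26, or 0.010 without dam 15. Ntsr2 differed by 0.28 ± 0.14 and Atp1b2, the glial sodium pump subunit, by -0.16 ± 0.08. Oligodendrocyte and myelin genes split into 11 higher and 10 lower with a median near 0, and Mbp, the myelin basic protein, measured 13.18, 12.95 and 12.99 against 13.09 and 13.18. Cryab, a small heat shock protein of oligodendrocytes, measured 7.58, 8.57 and 7.84 against 7.73 and 7.703, high in dam 15 alone; its difference of 0.28 ± 0.17 was -0.0030 without that array.

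Genes known to respond to thyroid hormone showed no common direction: 11 of 28 were higher and 17 lower, with a median of -0.05. Groups did not overlap in 2 genes on each side (7.14% each), near the shares of all genes (7.64% higher and 6.2% lower). Klf9, a direct target of the thyroid hormone receptor, measured 10.52, 10.27 and 10.37 in dosed pups and 10.26 and 10.29 in undosed pups, a difference of 0.11 ± 0.14, or 0.17 without dam 15. Hr, the hairless corepressor and another direct target, measured 8.95, 7.54 and 8.75 in dosed pups and 8.61 and 8.76 in undosed pups. For Hr, dam 12 lay above both undosed pups, dam 18 between them and dam 15 far below. Its difference went from -0.27 ± 0.25 to 0.16 without that array. Slco1c1, the thyroxine transporter of brain capillaries, measured 8.81, 7.61 and 8.60 against 8.84 and 8.78, again low in dam 15, and -0.47 ± 0.29 became -0.11 without it. Nrgn, neurogranin, a calmodulin-binding protein that responds to thyroid hormone in forebrain, measured 7.67, 7.93 and 7.50 against 8.14 and 7.95. The Nrgn difference was -0.34 ± 0.12, or -0.45 without dam 15 and -0.24 without undosed dam 1. Ntrk3, the receptor for neurotrophin 3, measured 7.81, 7.75 and 7.54 against 7.24 and 7.54, a difference of 0.31 ± 0.12, or 0.16 without undosed dam 1.

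Targets of the aryl hydrocarbon receptor and of the xenobiotic receptors were higher in 10 of 14 cases with a median of 0.12, and in 5 of 14 cases with a median of -0.03 without dam 15. Cyp1a1, the classical target of dioxin-like PCBs, was too dim to be tested and measured 6.16, 6.26 and 6.28 in dosed pups and 5.96 and 6.11 in undosed pups. Hippocampus at the same age held it between 6.26 and 6.39 in all pups. Cyp1b1, a related monooxygenase, measured 7.29, 8.00 and 7.57 in dosed pups and 7.34 and 7.40 in undosed pups. The pup of dam 12 lay below both undosed pups, and the difference was 0.25 ± 0.16, or 0.062 without dam 15. Tiparp, an ADP-ribosyltransferase induced through the same receptor, differed by -0.23 ± 0.12, the opposite direction, or -0.13 without dam 15. Gstm1, a glutathione transferase, measured 9.22, 9.86 and 9.24 against 9.25 and 8.94, a difference of 0.34 ± 0.14, or 0.13 without dam 15.

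In the oxidative stress and metal list, 15 of 25 genes were higher with a median of 0.07, and without dam 15 the median was -0.02. Mt2A, a metal-binding metallothionein, measured 9.12, 11.97 and 9.26 in dosed pups and 9.25 and 9.29 in undosed pups, and Hmox1, heme oxygenase, measured 7.15, 8.96 and 7.01 in dosed pups and 7.11 and 7.20 in undosed pups. In both, dams 12 and 18 lay near the undosed level and dam 15 stood far above. Their differences of 0.85 ± 0.53 and 0.55 ± 0.37 became -0.081 and -0.080 without that array.

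Calcium signalling genes numbered 23 higher and 25 lower of 48, with a median of -0.01, or 0.04 without dam 15. Camk2g, the gamma subunit of calcium and calmodulin dependent kinase II, measured 9.37, 9.94 and 9.42 in dosed pups and 9.15 and 9.16 in undosed pups. All dosed pups were higher, dam 15 the most, and the difference was 0.42 ± 0.14, or 0.24 without dam 15. Camkk2, the kinase that activates CaMKI and CaMKIV, measured 7.81, 7.25 and 7.24 against 7.85 and 7.69, with dam 12 inside the undosed range. Of 40 synaptic vesicle genes, 23 were lower with a median of -0.01, or 0.02 without dam 15, and Slc17a7, the vesicular glutamate transporter, measured 11.05, 10.38 and 11.16 against 11.06 and 11.16. Its difference of -0.24 ± 0.15 became -0.0020 without dam 15. Its second probe set gave -0.48 with all 5 arrays. Of 35 genes of glutamate receptors and the postsynaptic density, 19 were lower with a median of -0.01, or 0.02 without dam 15. Grm8, a presynaptic metabotropic receptor, measured 9.54, 9.65 and 9.61 against 9.42 and 9.40, with all dosed pups higher, a difference of 0.19 ± 0.09. The 16 GABA and glycine genes split evenly, with 8 higher and 8 lower and no gene without overlap.

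Axon guidance genes were lower in 18 of 30 cases with a median of -0.02, and the median was 0.01 without dam 15 and 0.03 without dam 1. Groups did not overlap in 6 genes on the higher side (20%, beside 7.64% of all genes) and in 2 on the lower side (6.67%, beside 6.2%). The higher ones, named after their values were seen, were Sema4f (0.16 ± 0.10), Unc5b (0.15 ± 0.13), Epha4 (0.25 ± 0.13), Dpysl4 (0.26 ± 0.14), Dpysl5 (0.11 ± 0.11) and the adhesion molecule L1cam (0.12 ± 0.09), and the lower ones Sema3c and Rtn4, the Nogo protein (-0.07 ± 0.08). Sema3c, a secreted semaphorin, measured 6.97, 6.54 and 6.69 in dosed pups and 7.13 and 7.11 in undosed pups, a difference of -0.39 ± 0.16. Plxna1, a semaphorin receptor, measured 9.29, 8.31 and 8.91 against 9.14 and 9.27 and was -0.10 without dam 15 after -0.37 ± 0.16 with it. Neurotrophins and growth factors had 24 of 40 higher, a median of 0.04 and 10 genes with dosed values all above (25%, beside 7.64% of all genes). Tgfb2 measured 7.78, 8.44 and 7.62 in dosed pups and 7.50 and 7.54 in undosed pups, Pdgfa 7.02, 7.43 and 7.04 against 6.72 and 7.02 and Igfbp3, a binding protein of insulin-like growth factors, 7.12, 9.08 and 7.23 against 6.86 and 6.94. Igfbp3 went from 0.91 ± 0.44 to 0.28 without dam 15, Tgfb2 from 0.43 ± 0.17 to 0.18 and Pdgfa from 0.29 ± 0.13 to 0.16. The median of the list was -0.03 without that array, with 22 lower.

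Among immediate early genes 14 of 21 were higher with a median of 0.04. Dusp6, the phosphatase that turns off ERK, measured 8.58, 8.76 and 8.51 in dosed pups and 8.48 and 8.31 in undosed pups at its brightest probe set, a difference of 0.22 ± 0.10. A second tested probe set of Dusp6 gave 0.53 ± 0.13, with values of 7.87, 8.17 and 7.91 in dosed pups and 7.52 and 7.37 in undosed pups. Both tested probe sets were thus higher in all dosed pups. Another Dusp6 probe set, too dim to be tested, measured 6.35, 6.38 and 6.00 against 6.66 and 6.32 and did not follow. In hippocampus at PND 14 the tested probe sets differed by 0.31 ± 0.09 and 0.40 ± 0.11. In the p53 and apoptosis list 12 of 19 were higher with a median of 0.04, and without dam 15 it was 8 of 19 with a median of -0.03. Bcl2l11, the BH3-only protein BIM, measured 9.18, 9.44 and 8.92 against 8.88 and 8.94, with dam 18 between the undosed pups; 0.27 ± 0.11 became 0.14 without dam 15. Mdm2, the ubiquitin ligase of p53, measured 7.99, 8.02 and 7.703 in dosed pups and 8.18 and 8.14 in undosed pups; all dosed pups were lower, and the difference of -0.25 ± 0.11 was -0.31 without dam 15.

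Cholesterol synthesis genes were lower in 23 of 26 cases, with a median of -0.19 and no gene whose groups did not overlap. The pup of dam 15 was the lowest of the 5 in 23 of the 26 (88.5%, beside 38.3% of all genes). Sqle, squalene epoxidase, measured 10.64, 9.83 and 10.45 in dosed pups and 10.69 and 10.63 in undosed pups, and Fasn, fatty acid synthase, measured 10.85, 10.28 and 10.73 in dosed pups and 10.92 and 10.82 in undosed pups. In both genes dam 12 lay between the undosed pups, dam 18 below them and dam 15 lowest, and the median of the list without it was -0.02 with 17 lower. In hippocampus at PND 14 the array of dam 15 had 24 of the 26 below the mean of the other 5 pups, with a median of -0.46 (48.6% of all genes were below). Mitochondrial respiration genes were lower in 38 of 52 cases with a median of -0.05, and without dam 15 in 18 cases with a median of 0.03. The 39 ribosomal protein genes had 27 higher and a median of 0.02, and without dam 15 they had 15 higher and a median of -0.03. Of 17 glucocorticoid and clock genes, 13 were higher with a median of 0.13, and 8 were higher with a median of -0.02 without dam 15. Groups did not overlap in 2 of them on the lower side (11.8%, beside 6.2% of all genes). On the higher side there were 0 (beside 7.64% of all genes). Sgk1, a glucocorticoid-induced kinase, measured 8.86, 9.32 and 8.65 in dosed pups and 8.73 and 8.65 in undosed pups, and Per2, a clock gene, measured 8.97, 8.96 and 8.69 against 8.53 and 8.76. Sgk1 went from 0.25 ± 0.16 to 0.065 without dam 15, and Per2 from 0.23 ± 0.13 to 0.12 without undosed dam 1.

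Markers of cells other than cerebellar parenchyma differed between arrays. The 6 choroid plexus genes measured had a mean level of 8.06, 9.78 and 9.79 in dosed pups and 8.08 and 9.27 in undosed pups. Ttr, transthyretin, the thyroxine carrier made by choroid plexus, measured 7.02, 13.16 and 13.28 in dosed pups and 7.36 and 12.28 in undosed pups. Levels were low in 1 dosed and 1 undosed pup and high in the other 3, and the Ttr difference of 1.33 ± 1.58 was -1.13 without the undosed array of dam 1. Enpp2 differed by 0.77 ± 0.46, Folr1 by 0.41 ± 0.21 and Sostdc1 by 0.68 ± 0.46. Without undosed dam 1 they differed by 0.42, 0.27 and 0.40, and without dam 15 by 0.50, 0.19 and 0.50. How much choroid plexus was kept with the tissue and its part in other differences were not tested.

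All 5 red blood cell genes were higher in dosed pups, with a median of 0.40, or 0.15 without dam 15, and 3 did not overlap (60%, beside 7.64% of all genes). Hbb, beta globin, measured 12.34, 13.63 and 12.31 in dosed pups and 11.58 and 11.93 in undosed pups, and Alas2, the first enzyme of heme synthesis in red cells, measured 8.31, 10.97 and 8.33 in dosed pups and 7.80 and 7.85 in undosed pups. Hbb differed by 1.01 ± 0.34, or 0.57 without dam 15, and Alas2 by 1.37 ± 0.54, or 0.49. The 3 probe sets that alpha globin genes Hba-a1 and Hba-a2 share differed by 0.57 ± 0.22, 0.62 ± 0.22 and 0.89 ± 0.26. At PND 7, 4 of the 5 genes were lower, with a median of -0.21. In hippocampus at PND 14 all 5 were higher (60.2% of all genes were), with a median of 0.12. The alpha globin probe sets differed there by 1.11 ± 0.20, 1.12 ± 0.20 and 1.16 ± 0.23, with adjusted p of 0.0682, 0.0682 and 0.168 in limma, so none passed. The mean level of the red cell list was 9.17, 10.18 and 9.15 in dosed pups and 8.85 and 8.91 in undosed ones, and its part in the results above was not tested.

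Meningeal and fibroblast genes were lower in 17 of 25 cases with a median of -0.17, and 6 did not overlap (24%, beside 6.2% of all genes). Lgals1, galectin 1, measured 8.17, 7.88 and 8.19 against 8.33 and 8.39, Vtn, vitronectin, 7.29, 7.14 and 7.37 against 7.44 and 7.49 and Dcn, decorin, 7.00, 6.99 and 7.24 against 7.30 and 7.30. The mean level of the list was 8.13, 8.55 and 8.57 in dosed pups and 8.45 and 8.53 in undosed ones, lowest in dam 12, although Lgals1, Vtn and Dcn were lowest in dam 15. The median was -0.14 without dam 15, -0.15 without dam 1 and -0.02 without dam 12, where 13 of 25 were lower. At PND 7 all 25 were lower, with a median of -0.21. Of 19 vascular genes, 9 were higher and 10 lower. Vwf, the endothelial clotting protein, measured 7.63, 9.27 and 7.67 against 7.39 and 7.61, and Tie1, an endothelial receptor, measured 7.30, 6.47 and 7.42 against 7.56 and 7.43, so the pup of dam 15 was at opposite extremes for these endothelial genes. Without it their differences went from 0.70 ± 0.37 to 0.16 and from -0.43 ± 0.21 to -0.14. Of 12 microglial and immune genes, 9 were higher with a median of 0.07, or -0.03 without dam 15. The 11 forebrain markers had a mean level between 8.42 and 8.64, with 9 higher and a median of 0.07.

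The pattern of dam 15 was also present in the hippocampus of that litter at PND 14. Across 6936 genes, the deviation of its cerebellum array from the other 4 correlated with the deviation of its hippocampus array from the other 5 at r = 0.603, while the same measure was between 0.0623 and 0.331 for the other 4 dams. These correlations run over genes, which are not independent replicates, and both sets of arrays come from the same litters. With the PND 7 arrays of dam 15, where another pup was taken, r was 0.0209 in cerebellum and 0.0103 in hippocampus. Of the 40 genes furthest above the others in cerebellum, 38 were also above in hippocampus at PND 14, with a median deviation of 0.83, and of the 40 furthest below, 38 were below, with a median of -0.59. In all genes 51.4% were above there. At PND 7 in cerebellum the counts were 25 and 18 of 40.

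Genes high on both PND 14 arrays of dam 15 were of several kinds. Txnip, an inhibitor of thioredoxin that responds to glucose, was 11.71 against 9.34 to 9.91 in the other cerebellum arrays and 10.48 against 8.46 to 8.72 in hippocampus. Igfbp3 was 9.08 against 6.86 to 7.23 and 9.42 against 7.52 to 7.72. Angptl4, a lipoprotein lipase inhibitor induced by fasting, was 8.61 against 6.79 to 7.02 and 8.81 against 6.97 to 7.33. Fn1, fibronectin, Depp1, Hrk, Pik3ip1, Nfkbia and Errfi1 were likewise higher, by 1.21 to 1.86 in cerebellum and by 0.61 to 1.53 in hippocampus.

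Genes low in both tissues included Tnc, the matrix protein tenascin C, at 7.91 against 8.98 to 9.50 in cerebellum and 6.74 against 7.63 to 8.08 in hippocampus. Slco1c1 was 7.61 against 8.60 to 8.84 and 8.53 against 9.51 to 9.84. Cyp51, lanosterol demethylase of cholesterol synthesis, was 8.47 against 9.64 to 9.96 and 8.98 against 9.65 to 9.84. On the hippocampus array of dam 15, oligodendrocyte and myelin genes lay below the mean of the other 5 in 18 of 21 cases. Their median was -0.80, and 48.6% of all genes were below. In cerebellum, by a different measure, the array of dam 15 was the lowest of 5 in 12 of them (57.1%, beside 38.3% of all genes). Not every gene followed: Ttr was 3.17 above the mean of the other 4 in cerebellum and 0.63 above that of the other 5 in hippocampus, and Egr1, an immediate early gene, was 1.07 above in cerebellum while its deviation in hippocampus was -0.72.

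**Figure D4:**
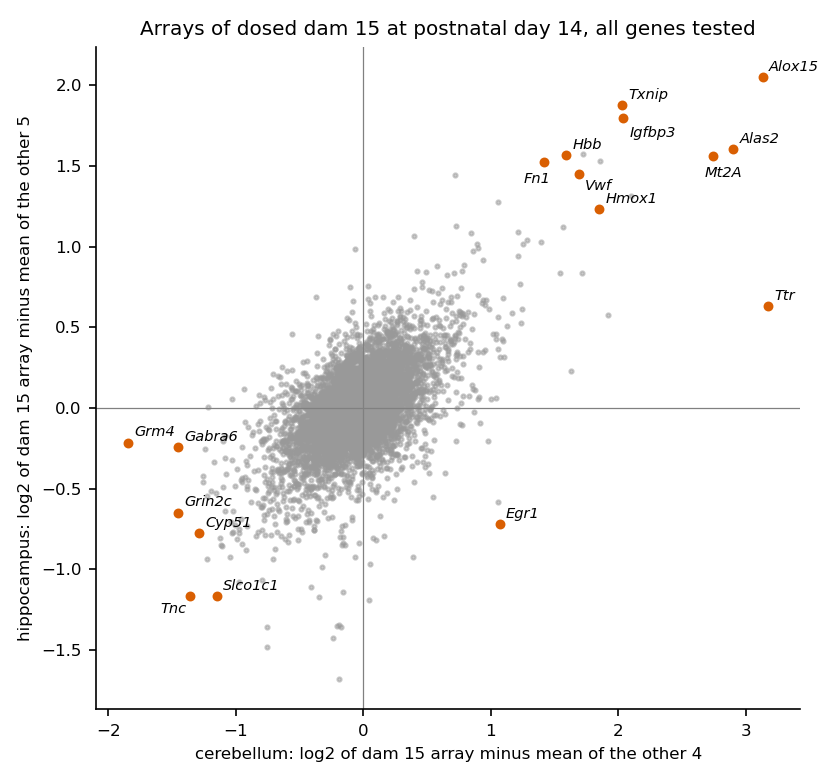
Deviation of the PND 14 arrays of dosed dam 15 from the mean of the other arrays of the same tissue (log2), in cerebellum (horizontal) and hippocampus (vertical), with 1 grey point per gene and examples in orange. Points run along the diagonal with r = 0.603, with Alox15, Alas2, Mt2A and Txnip at the upper right and Slco1c1 and Tnc at the lower left, while Egr1 lies off it.

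Whether the PND 14 difference differed from that at PND 7 was tested directly. Of 9519 probe sets, 1 passed (0.0105%), and 605 (6.36%) lay at an unadjusted p under 0.05, 427 of them (4.49%) toward a lower and 178 (1.87%) toward a higher difference at PND 14. The probe set belongs to Lig3, a DNA ligase of single-strand break repair and of mitochondria. It measured 7.31, 7.28 and 7.28 in dosed pups and 7.77 and 7.57 in undosed pups at PND 14. At PND 7 it measured 7.63, 7.65 and 7.701 in dosed pups and 7.28, 7.21 and 7.18 in undosed pups of dams 1, 7 and 13. Dosed pups were thus lower at PND 14 (-0.38 ± 0.10) and higher at PND 7 (0.44 ± 0.09), without overlap at either age, and the difference of differences was -0.82 ± 0.13 (adjusted p = 0.0329, limma). The brighter Lig3 probe set gave -0.02 ± 0.12 and did not follow. The call was lost when single arrays were left out, with an adjusted p in limma of 0.0857 without dosed dam 15, 0.0774 without dosed dam 18 and 0.999 without undosed dam 1; it was 0.0395 without dosed dam 12 and 0.0465 without undosed dam 7. Without the arrays of high Xist the adjusted p was 0.999, and with Xist as a covariate it was 0.0436.

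Genes next in order had the same shape but did not pass. Mat2a, which makes S-adenosylmethionine, had a difference of differences of -0.69 ± 0.14, Dlg1, a synaptic scaffold, of -0.57 ± 0.12 and Atp1b2 of -0.54 ± 0.11, each with an adjusted p of 0.263 in limma. Purb (-0.56 ± 0.12), Lbr, the lamin B receptor (-0.88 ± 0.21), Wapl, which releases cohesin (-0.55 ± 0.13), and Scarb1 (-0.38 ± 0.10) followed by the rule for named genes. In all of these the dosed mean was higher at PND 7 and lower at PND 14. Lig3, Mat2a and Dlg1 were singled out after their values were seen, because the rule takes the brightest probe set of a gene. A second Mat2a probe set gave -0.36 and a second Dlg1 probe set -0.08.

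**Figure D5:**
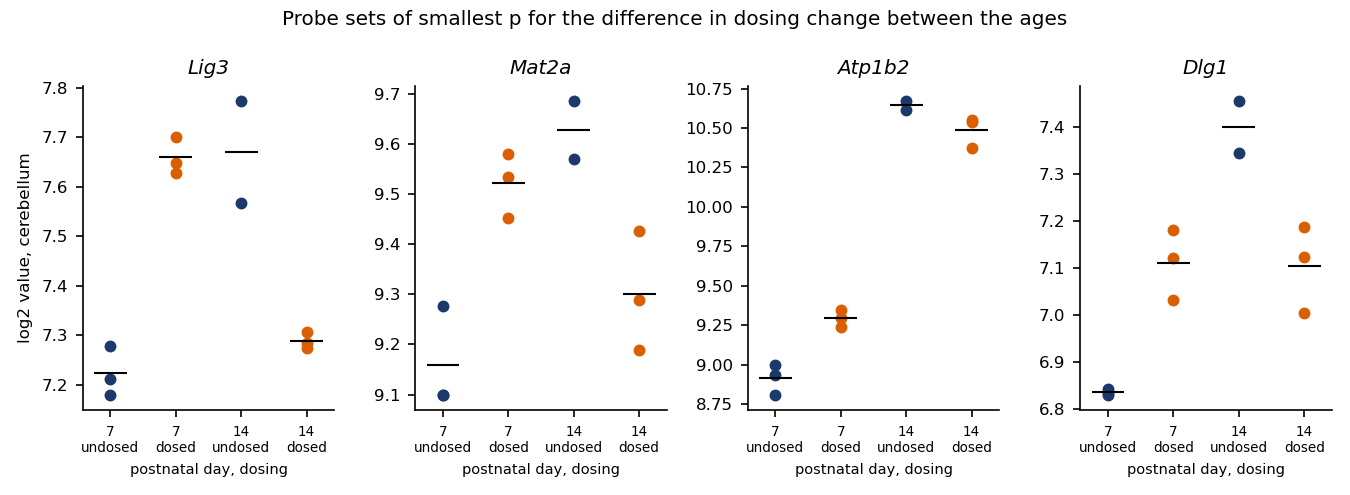
Log2 values in cerebellum (vertical axis) of the probe sets of Lig3, Mat2a, Atp1b2 and Dlg1 with the smallest p for the difference in dosing change between PND 7 and PND 14; points are arrays, orange for dosed and blue for undosed pups, and lines are group means. Dosed values lie above undosed ones at PND 7 and below at PND 14, and among these probe sets that of Lig3 passed the adjusted threshold.

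No probe set passed an adjusted p of 0.05 in limma for a difference in dosing change between cerebellum and hippocampus at PND 14. The count was 0 of 9519 (0%), with a smallest adjusted p of 0.999, and 223 (2.34%) lay at an unadjusted p under 0.05. By the rule, the genes of smallest p were Rprd1b, a regulator of RNA polymerase II, Pura, Dcaf7, Plekhh3 and Mdm2. Mdm2 was lower in dosed cerebellum (-0.25) and higher in dosed hippocampus (0.23), where it measured 7.51, 7.76 and 7.37 in dosed pups and 7.30, 7.33 and 7.32 in undosed pups of dams 1, 7 and 13. Pura was higher in cerebellum (0.39) and lower in hippocampus (-0.16). The difference between tissues was -0.48 ± 0.15 for Mdm2 and 0.55 ± 0.16 for Pura, neither of which passed. Without the array of dam 12, Lurap1l also passed this test and the test against PND 7, with -1.02 ± 0.15 and -0.94 ± 0.15.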

How the data were processed

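Total RNA of cerebellum and hippocampus was hybridised as biotin-labelled cRNA to Affymetrix rat arrays, per the labels' protocols. The values the authors deposited are taken as log2 because of their range. The way they were corrected for background, summarised and normalized is not given in the sources used here. Of 15923 probe sets, 57 controls were left out. Of the remaining 15866, 12783 have 1 gene symbol in the platform annotation, 312 several and 2771 none; 12748 matched a RefSeq gene.

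The 9519 probe sets whose mean over the 5 arrays lay above the 40th percentile of these means were tested with limma 3.58.1 in R 4.3.3: 1 mean per group over 23 arrays, contrasts, eBayes without a trend, 2-sided, Benjamini-Hochberg over all probe sets tested, threshold 0.05. The residual degrees of freedom were 15, against 3 with the 5 arrays alone. The script was tested on simulated data with independent noise of the same size in every array. No simulated array stood apart as that of dam 15 did, so this run is no measure of how the test behaves on these arrays. Each gene was taken at its brightest probe set with 1 symbol. Named genes were the 12 of smallest unadjusted p in each direction among those without overlap, the 4 of smallest p per list, the 5 of smallest p per difference between ages or tissues, and fixed genes. Not every gene so named is printed. The 31 lists, the members and the rules were chosen with earlier results of these data known. List counts and medians carry no test. The p-values and SEs rest on the spread between pups of different litters within groups, shared over both tissues and both ages. The same dams gave arrays to several groups, and the main fit treats these arrays as independent. The precision is limited by the number of litters, which is smaller than the number of arrays in the fit. Alternatives covered normalization, the array left out, arrays in the fit, filter, variance trend, dam as a block, Xist and each of the 5 arrays left out in turn.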

Additional observations from a re-analysis of the deposited data

Results flagged for a closer look

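The dosing change of 1 Lig3 probe set differed between the ages in cerebellum: the change at PND 14 minus that at PND 7 was -0.82 ± 0.13 (SE; adjusted p = 0.0329, limma with Benjamini-Hochberg adjustment over 9519 probe sets). It stands here because that difference itself passed the test. All 3 dosed pups lay below both undosed pups at PND 14 and all 3 lay above the 3 undosed pups at PND 7, while the brighter Lig3 probe set gave -0.02. The adjusted p was 0.0543 after quantile normalization, 0.0302 with the dam as a block, and over the arrays left out in turn it lay between 0.0395 (dosed dam 12) and 0.999 (undosed dam 1); it also missed 0.05 without dosed dam 15 (0.0857) and without dosed dam 18 (0.0774).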

How the results depend on the processing

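Probe sets called for dosing stayed at 0 in the other settings, with 1 without dam 12 (0 to 1 over arrays left out); at an unadjusted p under 0.05 the count of 465 became 123 with only the 5 arrays, 125 without arrays of high Xist, 326 with Xist as a covariate, 2226 and 1844 with the off-scale array as deposited and quantile normalized, and over arrays left out 153 (undosed dam 1) to 1170 (dosed dam 12). The 1 probe set called for the difference between ages was 0 with quantile normalization, with the off-scale array either way, with only the 11 cerebellum arrays, with the filter at the 60th percentile, with the variance trend and without arrays of high Xist; over arrays left out it was 0 (dosed dam 15, dosed dam 18 or undosed dam 1) to 2 (dosed dam 12). For the difference between tissues the count was 0, and 0 to 1 over arrays left out, 1 without dosed dam 12. The replicate block of dams (correlation 0.0311) gave 0, 1 and 0 for these and changed no call. The cause was not tested.

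Of 90 genes with a dosing change, 61 kept their direction under every setting run. Settings with the off-scale array hold a profile unlike the other undosed arrays, since its lowest correlation with them was 0.654. Quantile normalization alters the scale of that array and keeps the order of its probe sets. With the off-scale array as deposited, these turned: Cnksr3 -0.046, Tatdn3 -0.0084, Syvn1 0.016, Rimklb 0.30, Pcna 0.67, Ccnb1 0.75, Tead2 0.27, Tiam1 -0.037, Ntsr2 -0.12, Gfap 1.52, Ntrk3 -0.015, Slco1c1 0.077, Grm8 -0.10, Pdgfa -0.017, Per2 -0.046, Sgk1 -0.0023, Sqle 0.17, Folr1 -0.087 and Sostdc1 -0.010; between tissues Rprd1b 0.090, Dcaf7 1.27 and Plekhh3 -0.047 turned. With it quantile normalized, these turned: Tbc1d10a 0.25, Syvn1 0.30, Rimklb 0.59, Pcna 0.90, Ccnb1 1.11, Tead2 0.41, Ntsr2 -0.00043, Gfap 1.80, Slco1c1 0.31, Grm8 -0.053 and Sqle 0.28; between tissues Rprd1b 0.35 and Dcaf7 1.62 turned. Without arrays of high Xist, Ttr turned to -1.13. Genes that turned when 1 of the 5 arrays was left out had these ranges: Gabra6 -0.73 to 0.0058, Calb1 -0.021 to 0.10, Pvalb -0.23 to 0.20, Gfap -0.23 to 0.010, Cryab -0.0030 to 0.49, Hr -0.54 to 0.16, Mt2A -0.081 to 1.34, Hmox1 -0.080 to 0.90, Ttr -1.13 to 3.79 and Dcx -0.086 to 0.14. Of 527 list medians under alternatives, 37 moved by more than the spread between replicates. This count is no measure of stability. The spread holds the array of dam 15 itself, and settings that alter only the error estimate leave the differences unchanged. Without dam 15, only 2 medians counted as moved by this measure, although 16 of 31 turned and 27 turned or moved by over 1.5 times.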

Other observations

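Ifi27, an interferon-induced gene, was at either a high or a low level, and the level was alike in both tissues of a litter at 1 age; it was chosen after its values were seen. In cerebellum at PND 14 it measured 7.81, 9.52 and 9.69 in the dosed pups of dams 12, 15 and 18 and 7.85 and 7.90 in the undosed pups of dams 1 and 7. In hippocampus at PND 14 it measured 8.38, 9.59 and 9.48 in the dosed pups and 7.98, 8.09 and 8.55 in the undosed pups of dams 1, 7 and 13, so the high arrays in both tissues were those of dosed dams 15 and 18, and every undosed array was lower. At PND 7 the high arrays in cerebellum were those of dosed dam 15 at 10.21 and undosed dam 13 at 9.77, with the other 4 between 7.92 and 8.26. In hippocampus at PND 7 the same dams were high, at 10.05 and 9.28, with the others between 7.72 and 8.16. No test was made of this pattern.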
